A study of Mus musculus with 7 samples.

Results

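The receptor and transcription factor arm of prolactin signalling in the lactating mouse mammary gland was followed through 10 genes, chosen by name: *Prlr*, *Jak2*, *Stat5a*, *Stat5b*, *Elf5*, *Cish*, *Socs1*, *Socs2*, *Nr3c1* and *Nfib*. All 10 were found among the 37310 genes of the count table, and all 10 passed the filter on low counts that left 17175 genes for testing. RNA of whole mammary glands was sequenced at lactation day 1 in 3 libraries labelled WT and 4 libraries labelled Tardbp KO, each from C57BL/6 mice. Per the study's methods, both genotypes carry a Cre recombinase transgene under the promoter of whey acidic protein (WAP-Cre), which is active in luminal epithelial cells from the middle of pregnancy. WT mice have unmodified *Tardbp* alleles, and KO mice have floxed alleles (*Tardbp* fl/fl), from which exons 2 and 3 are removed. Cells of the gland that never use the WAP promoter keep the gene, so the libraries hold RNA of both kinds of cell. The age of the mice is not given in the sources used here, and nothing says that a library pools several animals.

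Prolactin binds its receptor, encoded by *Prlr*, and activates the receptor-bound kinase JAK2. JAK2 phosphorylates the transcription factors STAT5A and STAT5B, which move to the nucleus and switch on milk protein genes together with the glucocorticoid receptor (*Nr3c1*), the nuclear factor NFIB and the ETS factor ELF5. The same STAT5 proteins raise *Cish*, *Socs1* and *Socs2*, whose SH2-domain proteins dampen the receptor and the kinase. *Stat5a* and *Elf5* are each needed for the alveolar epithelium to form and to make milk.

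STAT5 binds a short palindrome, and matches to its letters near the start of a gene show where the members and their milk targets could be compared at the sequence level. The pattern TTCNNNGAA, which reads the same on both strands, was searched in the 300 bases that RefSeq (GRCm38.p6) places around each gene start, 250 before and 50 after. It lay in 8.30% of 32851 such windows, and 9.55% of the 27025 genes with windows held a match. The table holds windows for 7 of the 10 genes, 12 windows in all, and gives none for *Socs2*, *Nr3c1* and *Nfib*. Among these 7 genes, *Cish* and *Prlr* held a match, and among the 6 milk protein genes listed there, *Csn1s1*, *Csn1s2a*, *Csn2* and *Glycam1* did. The windows below are written 5′ to 3′ on the strand of the gene, with the matches in capitals. The *Cish* window holds 2 matches with 2 bases between them.
Cish, chr9:107296654-107296683, plus strand: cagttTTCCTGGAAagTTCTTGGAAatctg
Prlr, chr15:10223786-10223814, plus strand: gcaaaatgagTTCTAGGAAtaagggatat
Csn2, chr5:87699500-87699528, minus strand: tcacgtagacTTCTTGGAAttgaagggac
Csn1s1, chr5:87666098-87666126, plus strand: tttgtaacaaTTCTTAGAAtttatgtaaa
Glycam1, chr15:103565208-103565236, minus strand: gccaactcatTTCCCAGAAacaccaattc
The *Prlr* match begins 110 bases before one of its listed starts, and the first *Cish* match begins at the listed start itself. The letters of the second *Cish* match, TTCTTGGAA, are also those of the β-casein (*Csn2*) match 93 bases before its start. A match is a description of letters and not evidence of binding.

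Between 36007737 and 42811337 reads were counted per library. Milk protein genes (caseins, *Wap*, *Lalba* and *Glycam1*) took 28.5% to 38.2% of the counts in WT libraries and 13.9% to 24.1% in KO libraries. Because so few genes take so many counts, libraries were scaled by TMM factors, which set the most extreme genes aside and lay between 0.781 and 0.909 in WT and between 1.00 and 1.23 in KO libraries, and levels are given as TMM-normalized CPM, the counts of a gene in a library brought to a common total. The WT libraries had 187 ± 32.6 CPM of *Tardbp* itself (SD, n = 3), and the KO libraries 188 ± 28.2 CPM (SD, n = 4). The file gives no counts per exon, so this level does not check the genotype labels. WT replicates 1, 2 and 3 carry the lane numbers 3, 4 and 2 in their labels and KO replicates 1 to 4 carry 1, 5, 4 and 4, so lane and genotype can be compared apart only on lane 4, which holds 1 WT and 2 KO libraries.

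To set the genes side by side, the CPM of each was divided by its annotated exon length in kb. *Elf5* was the most abundant in WT libraries on this per-length scale, with 180 ± 7.92 CPM per kb (SD, n = 3). *Stat5a* followed at 40.3 ± 5.91 and *Stat5b* at 27.5 ± 3.97 CPM per kb, and the lowest WT library of *Stat5a* lay above the highest of *Stat5b*. *Nr3c1* stood at 23.9 ± 5.81 CPM per kb, a range that overlapped with that of *Stat5b*. Below *Nr3c1* came *Nfib* at 15.2 ± 1.18, *Jak2* at 10.5 ± 1.01, *Prlr* at 8.40 ± 2.03 and *Cish* at 6.42 ± 1.90 CPM per kb, where the WT libraries of *Jak2* and *Prlr*, and those of *Prlr* and *Cish*, overlapped. The feedback genes *Socs1* at 1.54 ± 0.131 and *Socs2* at 1.31 ± 0.152 CPM per kb were the lowest and also overlapped. The exon length joins all annotated exons of a gene, 15494 bases for *Prlr*, so a gene with long alternative exons is understated on this scale. In KO libraries the order was the same except that *Jak2* passed *Nfib* and *Cish* passed *Prlr*.

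**Figure D1:**
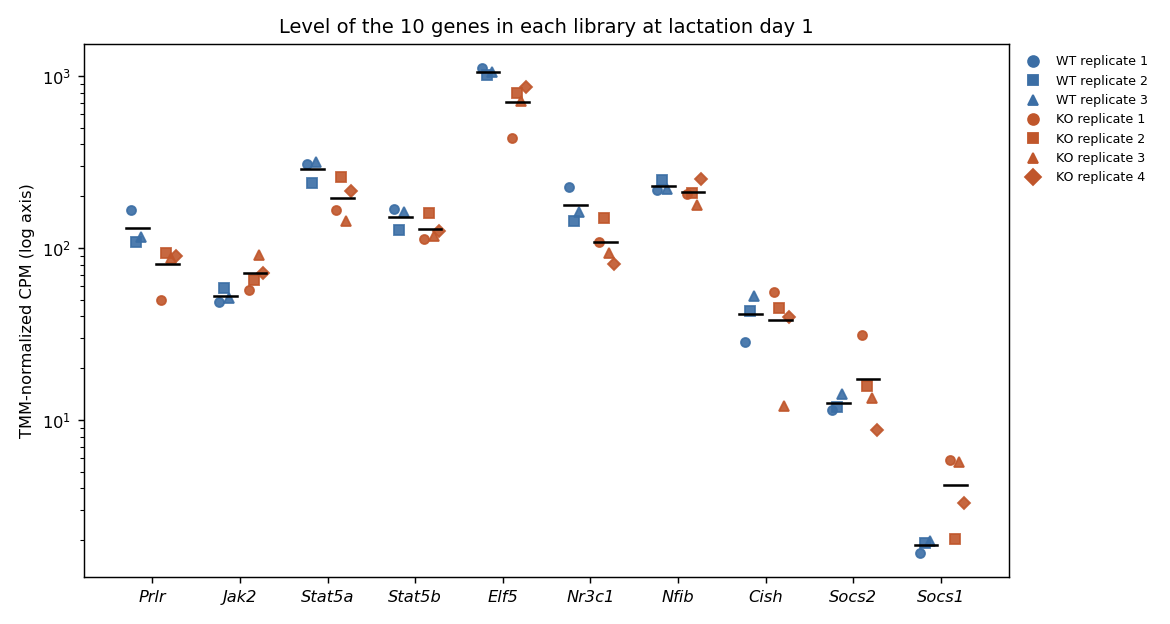
Each point is 1 library, with WT in blue and KO in orange, and the black bar is the mean of a genotype. The vertical axis gives TMM-normalized CPM on a log scale. *Prlr* and *Elf5* have every KO library below every WT library, and *Socs1* has every KO library above, while *Cish* and *Socs2* spread more among KO libraries than among WT libraries.

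The question of the comparison is which genes of the gland differ in level when *Tardbp* is deleted in the luminal epithelium. A gene was called when its adjusted p was under 0.01 and its log2 fold change beyond 1 in either direction. None of the 10 genes was called by edgeR's quasi-likelihood test, where 0% of all genes tested were called. EdgeR's exact test, which called 2.48% of all genes, and DESeq2's Wald test, which called 3.31%, also called none of the 10. An unadjusted p under 0.05 in edgeR's quasi-likelihood test was reached by 6 of the 10 genes and by 21.4% of all genes. *Prlr*, *Stat5a*, *Elf5* and *Nr3c1* were lower in KO libraries (10.7% of all genes were lower at this p), and *Jak2* and *Socs1* were higher (10.7% of all genes). The genotypes did not overlap for 3 of the 10 genes and for 18.7% of all genes. *Prlr* and *Elf5* had all KO libraries below all WT libraries, as did 9.62% of all genes, and *Socs1* had them above, as did 9.07%. The median log2 fold change was −0.18 over the 10 genes and 0.05 over all genes. Leaving out WT replicate 1 left 0 of the 10 at an unadjusted p under 0.05 in edgeR's test, and 12.3% of all genes. Without WT replicate 3 there were 3 members and 14.7% of all genes, and without KO replicate 3 there were 3 members and 15.2%. The number without overlap was 7 without WT replicate 2, where it was 37.5% of all genes, and 6 without KO replicate 2, where it was 23.1%. The labels number the replicates without naming an animal for each. The study's legend to its heatmap of these data counts the samples of each genotype as mice. On that reading these p-values measure the spread between libraries of different mice, from which a technical part was not separated.

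**Figure D2:**
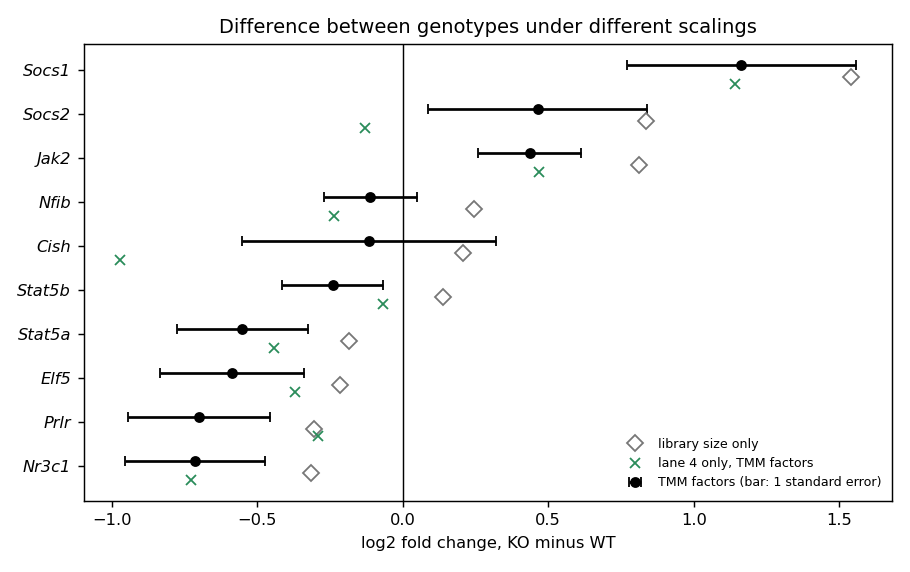
Log2 fold change of each gene, KO minus WT, on the horizontal axis, with TMM factors (black, bar of 1 standard error), with libraries scaled by size alone (grey diamonds) and with TMM factors within lane 4 (green crosses). *Nr3c1*, *Prlr*, *Elf5* and *Stat5a* lie left of 0 and *Socs1* and *Jak2* right of 0 under all 3, whereas *Stat5b*, *Cish* and *Nfib* change side with the scaling by size alone and *Socs2* changes side within lane 4.

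*Prlr* (ENSMUSG00000005268), the receptor, spans 196512 bases on the plus strand of chromosome 15, from 10106993 to 10303504 of NCBIM37, the assembly of the file. Its level was 166, 108 and 116 CPM in the WT libraries, in the order of their replicate numbers, and 49.8, 93.2, 87.6 and 89.9 CPM in the KO libraries, as in the sentences that follow. No KO library reached the lowest WT library, KO replicate 1 stood well below the other KO libraries, and WT replicate 2 and KO replicate 2 were the closest pair across genotypes. The KO mean was 38.4% below the WT mean, and the log2 fold change was −0.70 (SE 0.245, edgeR adjusted p = 0.154). Permuting the genotypes over the libraries gave a 2-sided exact p of 0.0286, the smallest that the 35 splits of 7 libraries allow. Without KO replicate 1 this difference was −0.53, and within lane 4 it was −0.29. With libraries scaled by size alone it was −0.31, and the genotypes overlapped. The counts join all isoforms, so the long and short forms of the receptor, which differ in their signalling tail, were not separated. In bulk tissue, fewer cells that express a gene and less RNA per cell cannot be told apart, here and for the genes that follow.

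*Ghr*, the growth hormone receptor, which also signals through JAK2 and STAT5, had 133 to 147 CPM in WT and 136 to 205 CPM in KO libraries, a log2 fold change of 0.18 (edgeR adjusted p = 0.600). All 8 luminal epithelial genes of the marker list had a positive log2 fold change, with a median of 0.59 and of 0.40 within lane 4. Of the 8, 4 had an unadjusted p under 0.05 in edgeR's quasi-likelihood test, beside 10.7% of all genes that were higher. All KO libraries lay above all WT libraries for 3 of the 8 and for 9.07% of all genes. The summed level of the 8 was between 1730 and 2707 CPM in WT and between 2682 and 3688 CPM in KO libraries. Genes of hormone-sensing luminal cells, a list of 6, had a median log2 fold change of −0.12. Set against the WT mean, their median was −0.71, 0.20, −0.39 and −0.43 on the log2 scale in KO replicates 1 to 4, lowest in KO replicate 1 as for *Prlr*. Of these genes, 3 had a negative and 3 a positive log2 fold change. *Cited1* had all KO libraries below all WT libraries, while *Ly6a* was higher, at a log2 fold change of 0.81. *Pgr* was highest in KO replicate 1, at 4.49 CPM. The 8 myoepithelial genes summed to 3078 CPM in KO replicate 1, 1079 to 1289 CPM in the other KO libraries and 1203 to 2064 CPM in WT libraries. The part of these cell types in the level of *Prlr* was not tested. Counts per exon base of *Prlr* were 0.0476, 0.0215 and 0.0282 of those of the luminal keratin gene *Krt8* in WT replicates 1 to 3. The same ratio was 0.00832, 0.0180, 0.0136 and 0.0128 in KO replicates 1 to 4. Such a ratio within a library does not depend on the scaling of libraries, and its KO values all lay below its WT values. *Krt8* itself had 407 to 588 CPM in WT and 604 to 819 CPM in KO libraries, a log2 fold change of 0.55. Its higher level in KO libraries lowers this ratio and the later ratios to *Krt8*. Over the 8 luminal genes the log2 fold changes ran from 0.01 to 1.31, so the size of such a ratio depends on the gene chosen. The ratios given here were chosen after the levels had been seen and were not tested.

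*Jak2* (ENSMUSG00000024789, plus strand of chromosome 19, 29326318 to 29387570), the kinase bound to the receptor, went the other way. Its libraries held 48.8, 58.4 and 50.9 CPM in WT and 57.3, 65.1, 91.2 and 71.6 CPM in KO libraries. KO replicate 1 lay below WT replicate 2, so the groups overlapped by that pair, and KO replicate 3 was the highest. Its log2 fold change was 0.44 (SE 0.177, edgeR adjusted p = 0.201), and the exact permutation p was 0.0857. It was 0.81 with libraries scaled by size alone and 0.30 without KO replicate 3.

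*Stat5b* and *Stat5a* lie back to back on chromosome 11 with 8626 bases between them, *Stat5b* (ENSMUSG00000020919) on the minus strand from 100642045 to 100712038 and *Stat5a* (ENSMUSG00000004043) on the plus strand from 100720665 to 100746483. *Stat5a* had 306, 239 and 318 CPM in WT and 165, 260, 144 and 216 CPM in KO libraries. Only KO replicate 2 reached into the WT range, above WT replicate 2. The log2 fold change was −0.55 (SE 0.225, edgeR adjusted p = 0.203), with an exact permutation p of 0.114. *Stat5b* had 168, 127 and 162 CPM in WT and 113, 160, 117 and 125 CPM in KO libraries, with the same pair of libraries inside the other genotype's range. Its log2 fold change was −0.24 (SE 0.174, edgeR adjusted p = 0.470), and it was 0.14 with libraries scaled by size alone.

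The balance of the 2 genes can be read within each library. Per exon base, *Stat5a* had 1.42, 1.46 and 1.52 times the counts of *Stat5b* in WT replicates 1 to 3. In KO replicates 1 to 4 it had 1.13, 1.26, 0.952 and 1.34 times those counts, each below every WT library. Over the genotypes this is 1.47 ± 0.0546 (SD, n = 3) in WT and 1.17 ± 0.170 (SD, n = 4) in KO libraries. The paralogs are alike in sequence: 6.99% of the stretches of 100 bases in the longest *Stat5a* transcript occur unchanged in *Stat5b* transcripts, and reads that map to both were not counted. *Stat3*, the neighbour whose exons share 72 bases with those of *Stat5a*, encodes the STAT that dominates when the gland involutes, and had 248, 431 and 317 CPM in WT and 514, 525, 578 and 569 CPM in KO libraries. All KO libraries were above all WT libraries for *Stat3*, with a log2 fold change of 0.72 (SE 0.210, edgeR adjusted p = 0.115). Counts per exon base of *Stat5a* relative to *Stat3* were 1.65, 0.742 and 1.34 in WT and 0.430, 0.661, 0.333 and 0.506 in KO libraries, without overlap. WT replicate 2 was the WT library nearest to the KO libraries in this ratio. *Stat5b* relative to *Stat3* overlapped between genotypes, with 1.16, 0.508 and 0.877 in WT and 0.379, 0.523, 0.350 and 0.378 in KO libraries. *Stat5a* relative to *Krt8* overlapped as well, with 0.190, 0.103 and 0.168 in WT and 0.0599, 0.109, 0.0485 and 0.0666 in KO libraries.

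**Figure D3:**
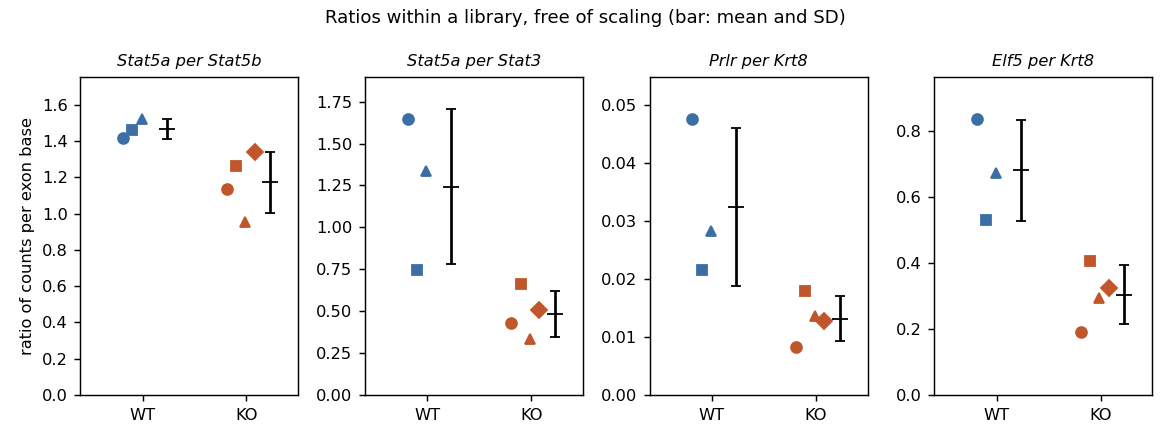
Ratios of counts per exon base within each library, which do not depend on how libraries are scaled. *Stat3* and *Krt8*, by which some of them divide, had all KO libraries above all WT libraries. Symbols are replicates as in the plot of levels by library, and the bar gives mean and SD. All KO libraries lie below all WT libraries in the 4 ratios drawn, which were picked from 12 computed, 6 of which overlapped between genotypes, and the 3 WT values of *Stat5a* per *Stat5b* lie between 1.42 and 1.52.

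*Elf5* (ENSMUSG00000027186, plus strand of chromosome 2, 103251845 to 103291146), an epithelial factor of alveolar cells, had 1108, 1017 and 1048 CPM in WT libraries, the tightest group among the 10 genes. KO libraries had 434, 798, 718 and 864 CPM, all lower, and KO replicate 1 was the lowest as it was for *Prlr*. The KO mean was 33.5% below the WT mean. This is a log2 fold change of −0.59 (SE 0.247, edgeR adjusted p = 0.214), and the exact permutation p was 0.0571. Without KO replicate 1 the log2 fold change was −0.41, and with libraries scaled by size alone it was −0.22 with overlapping groups. Relative to *Krt8*, *Elf5* counts per exon base were 0.836, 0.531 and 0.673 in WT and 0.191, 0.406, 0.293 and 0.324 in KO libraries. Across the 7 libraries the log2 profile of *Elf5* was the closest of the members to that of *Prlr*, with a root mean square difference of 0.163.

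The glucocorticoid receptor gene *Nr3c1* (ENSMUSG00000024431) is on chromosome 18, minus strand, 39570199 to 39650955. It had 226, 144 and 161 CPM in WT and 108, 150, 93.6 and 81.2 CPM in KO libraries. Its groups overlapped only because KO replicate 2 lay above WT replicate 2. The log2 fold change of −0.71 (SE 0.240, edgeR adjusted p = 0.145) was the most negative of the 10 genes, and the exact permutation p was 0.0857. It was −0.73 within lane 4. *Nr3c1* is used by many cell types of the gland. None of the 7 fibroblast, 6 endothelial and 8 adipocyte genes of the marker lists had an unadjusted p under 0.05 in edgeR's test, and their median log2 fold changes were −0.07, −0.11 and 0.35.

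Of 11 genes that glucocorticoids are known to raise, 3 were higher at an unadjusted p under 0.05 in edgeR's quasi-likelihood test. Over all genes this share was 10.7%. None of the 11 was lower at that p, and none was called by that test, which called 0% of all genes. EdgeR's exact test, which called 2.48% of all genes, called 2 of the 11, *Mt1* (adjusted p = 6.9e-07) and *Mt2* (adjusted p = 1.5e-05). *Mt1* and *Mt2*, the metallothionein genes, which metals also raise, had log2 fold changes of 1.65 (SE 0.245, edgeR adjusted p = 0.0537) and 2.54 (SE 0.448, edgeR adjusted p = 0.0678). *Errfi1* was the third gene that was higher at that unadjusted p. *Fkbp5*, which encodes a chaperone partner that holds back the receptor, had the most negative value of the list, −0.75 (edgeR adjusted p = 0.316). It rested on WT replicate 3, with 168 CPM, where the other libraries had 46.0 to 93.4 CPM. *Nr3c2*, the mineralocorticoid receptor gene, had 14.3, 11.4 and 15.2 CPM in WT and 4.46, 9.46, 9.23 and 7.01 CPM in KO libraries, without overlap.

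*Nfib* (ENSMUSG00000008575, minus strand of chromosome 4, 81936077 to 82351654), which works beside STAT5 at milk gene enhancers, covers 415578 bases and is the longest of the 10 genes. It had 216, 248 and 219 CPM in WT and 206, 210, 178 and 250 CPM in KO libraries, and the groups overlapped. Its log2 fold change was −0.11 (SE 0.160, edgeR adjusted p = 0.733). The other NFI genes *Nfia*, *Nfic* and *Nfix* had log2 fold changes of −0.21, 0.00 and 0.02, and each had overlapping groups.

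*Cish* (ENSMUSG00000032578, plus strand of chromosome 9, 107198357 to 107205115), a direct STAT5 target whose protein blocks STAT5 docking, showed no common direction. It had 28.2, 43.0 and 52.4 CPM in WT and 55.6, 44.7, 12.04 and 39.9 CPM in KO libraries. KO replicate 1 was the highest of the 7 libraries and KO replicate 3 the lowest, a 4.62-fold range within the KO group, against 1.86-fold within WT. The log2 fold change was −0.12 (SE 0.437, edgeR adjusted p = 0.908), and it was 0.18 without KO replicate 3 and 0.09 without WT replicate 3. Unstranded reads over the genes *Gm17040* and *Gm17041*, which cover 11.5% of the *Cish* exon bases, were left out of its counts.

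*Socs2* (ENSMUSG00000020027, minus strand of chromosome 10, 94847996 to 94879814), which restrains growth hormone and prolactin signalling, had 11.5, 11.9 and 14.2 CPM in WT libraries. KO libraries had 31.0, 15.9, 13.5 and 8.77 CPM, on both sides of the WT range, with KO replicate 1 the highest as for *Cish*. The log2 fold change was 0.46 (SE 0.376, edgeR adjusted p = 0.524) and 0.02 without KO replicate 1, so its size rested on that library. Of the stretches of 100 bases in the longest *Socs2* transcript, 4.25% occur in *Gm9847*, and reads that map to both were not counted.

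*Socs1* (ENSMUSG00000038037, minus strand of chromosome 16, 10783901 to 10785629), which binds and inhibits JAK kinases downstream of prolactin and of interferons, was the only member with a difference above 1 on the log2 scale. It had 45, 65 and 67 counts in WT and 219, 88, 277 and 124 counts in KO libraries. Scaled, these are 1.69, 1.94 and 1.99 CPM in WT and 5.81, 2.02, 5.67 and 3.31 CPM in KO. KO replicate 2 lay just above the WT libraries, and KO replicates 1 and 3 were the highest. For *Socs1* the log2 fold change was 1.16 (SE 0.393, edgeR adjusted p = 0.145, exact permutation p = 0.0571). With DESeq2's size factors KO replicate 2 no longer lay above all WT libraries. DESeq2's Wald test gave an adjusted p of 0.0452 for *Socs1*, the lowest over the alternatives, and the highest was 0.410.

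The 2 libraries with the most *Socs1* were also those with the most RNA of lymphocyte marker genes. All 10 lymphocyte genes of the marker list had a positive log2 fold change, with a median of 2.56. All 10 had an unadjusted p under 0.05 in edgeR's quasi-likelihood test, beside 10.7% of all genes that were higher. None of the 10 was at 0 in any library. Their summed level was 41.3 to 57.4 CPM in WT libraries and 425, 68.2, 584 and 130 CPM in KO replicates 1 to 4. Counts per exon base of *Socs1* relative to those of *Ptprc*, the pan-leukocyte gene CD45, were 0.345, 0.520 and 0.522 in WT and 0.272, 0.299, 0.195 and 0.535 in KO libraries, and overlapped. *Stat4*, a STAT of lymphoid cells, had 0.827, 0.298 and 0.416 CPM in WT and 4.46, 0.920, 6.33 and 1.12 CPM in KO libraries. *Ptpn6*, a phosphatase of blood cells that acts on JAK kinases, had 20.5, 18.0 and 17.4 CPM in WT and 49.1, 21.5, 60.5 and 25.2 CPM in KO libraries. The part of lymphocyte RNA in the difference of *Socs1* was not tested.

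**Figure D4:**
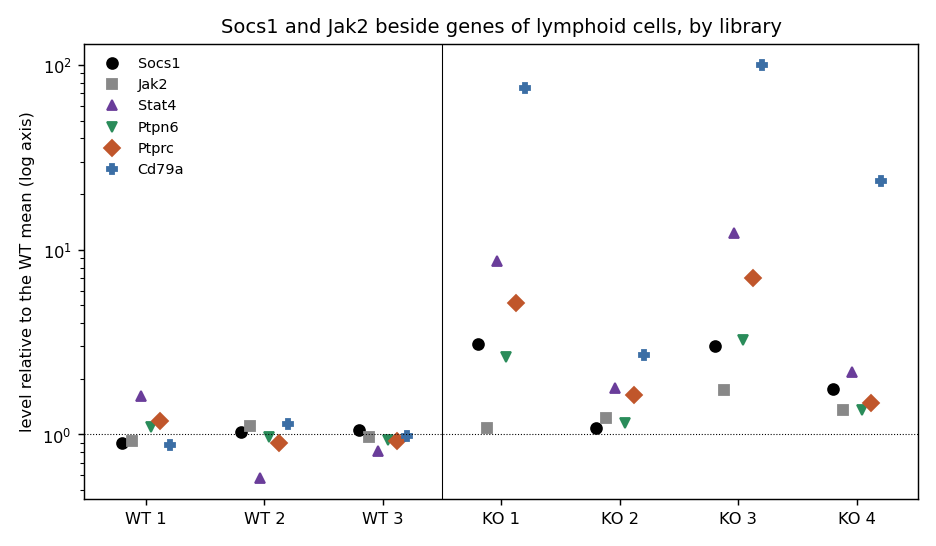
Level of each gene in each library, divided by its mean over the WT libraries, on a log axis, with WT libraries left and KO libraries right of the vertical line. *Socs1*, *Stat4* and *Ptpn6* are highest in KO replicates 1 and 3, the libraries in which the lymphocyte genes *Ptprc* and *Cd79a* are also highest, and *Jak2*, with 57.3 to 91.2 CPM in KO libraries, has the smallest range among them.

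Around these members, other genes of the pathway were counted by list, beside 21.4% of all genes at an unadjusted p under 0.05 and 10.7% in each direction. Among 14 tested genes of other receptors and adaptors, 2 were higher and 1 lower at that p in edgeR's test, a share at the level of all genes. *Gab2*, an adaptor that links receptors to PI3-kinase, had 22.9 to 27.3 CPM in WT and 33.4 to 48.3 CPM in KO libraries, without overlap (log2 fold change 0.77, edgeR adjusted p = 0.0753). *Irs1*, an adaptor of insulin signalling, was the lower gene, with a log2 fold change of −0.66 (edgeR adjusted p = 0.181). Among the 8 other JAK and STAT genes, 2 were higher, *Stat3* and *Stat4*, and none lower, again close to the share of all genes, and the most negative value was −0.06 for *Stat2*.

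Of 17 other inhibitors of the pathway, 3 were higher and 1 lower at that p, a share near that of all genes, and 13 had a positive log2 fold change, with a list median of 0.21 and 0.05 over all genes. *Socs3*, which restrains STAT3 signalling, had 12.03, 40.4 and 31.5 CPM in WT and 55.7, 54.7, 54.7 and 99.3 CPM in KO libraries (log2 fold change 1.24, edgeR adjusted p = 0.134). *Ptpn2*, a phosphatase that acts on JAK and STAT proteins, had the lowest adjusted p of the list, 0.0862 in edgeR's quasi-likelihood test, at a log2 fold change of 0.71. *Dusp6*, a phosphatase of ERK kinases, was the lower gene at −0.34, and stood at 0.05 with libraries scaled by size alone. The inhibitors with every KO library above every WT library were 8 of the 17, against 9.07% of all genes.

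Of 24 other factors and cofactors of milk genes, 3 were higher and 3 lower at that p, near the 10.7% of all genes in each direction, and the list median was 0.00. *Cebpd*, a factor that rises when the gland stops lactating, had 35.5, 90.3 and 39.7 CPM in WT and 138, 133, 114 and 163 CPM in KO libraries (log2 fold change 1.31, SE 0.324, edgeR adjusted p = 0.0868). It was the gene of this list that edgeR's exact test called. *Id2*, which alveolar development needs, had 174, 153 and 186 CPM in WT and 33.7, 41.0, 59.3 and 119 CPM in KO libraries (log2 fold change −1.43, SE 0.388, edgeR adjusted p = 0.0972). *Cebpb*, *Gata3* and *Yy1* each had overlapping groups and unadjusted p above 0.05.

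The genes that STAT5 acts on did not share 1 direction. The 8 milk protein genes were all lower, with a median log2 fold change of −1.26, and 6 had an unadjusted p under 0.05 in edgeR's quasi-likelihood test. Each had all KO libraries below all WT libraries, as did 9.62% of all genes. EdgeR's exact test called 3 of the 8. The study itself reports, from qRT-PCR at this stage and others, that several milk protein genes in mammary epithelial cells were unaffected by loss of *Tardbp*. *Lalba*, the lactose synthase cofactor, had 5758, 5366 and 5526 CPM in WT and 1148, 1889, 2010 and 3244 CPM in KO libraries (log2 fold change −1.42, SE 0.343, edgeR adjusted p = 0.0858). The WAP-Cre transgene uses the promoter of one of these genes, *Wap*, which had 76629, 42049 and 46917 CPM in WT and 29995, 15327, 20337 and 37025 CPM in KO libraries.

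Of 12 other tested targets of prolactin or STAT5, 3 were lower at that p in edgeR's quasi-likelihood test and 4 were higher. The other 5 had an unadjusted p above 0.05. EdgeR's exact test, which called 2.48% of all genes, called 1 lower gene, *Akt1* (adjusted p = 0.0016). It also called 1 higher gene, *Bcl2l1* (adjusted p = 0.0092). *Akt1*, a kinase gene that STAT5 raises in the mammary epithelium, had 721, 541 and 777 CPM in WT and 395, 313, 224 and 366 CPM in KO libraries (log2 fold change −1.07, SE 0.233, edgeR adjusted p = 0.0793). *Pim1*, another kinase gene, and *Ccnd1*, the cyclin D1 gene, were the others that were lower, at −0.71 and −1.47. *Bcl2l1*, which protects cells from death, had 26.1, 60.9 and 38.9 CPM in WT and 102, 69.6, 86.7 and 99.4 CPM in KO libraries (log2 fold change 1.09, SE 0.277, edgeR adjusted p = 0.0907). *Mcl1*, *Osm* and *Socs3* were the other higher genes. *Osm*, a cytokine gene, reached at most 1.21 CPM.

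**Figure D5:**
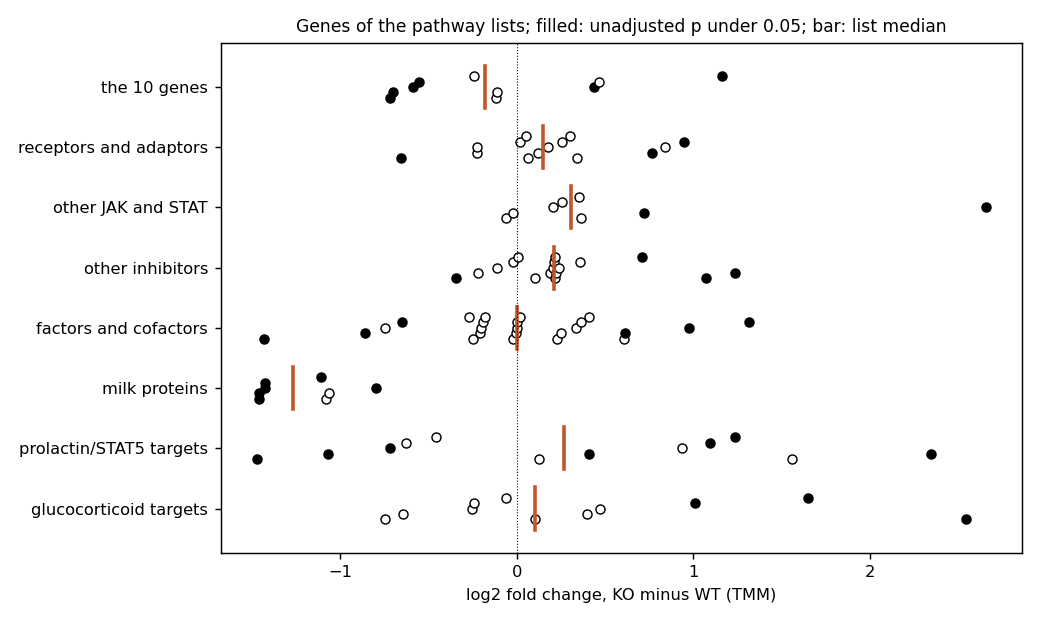
Log2 fold change, KO minus WT, of every tested gene of the 10 members and of 7 lists of pathway genes. Filled points have an unadjusted p under 0.05 in edgeR's quasi-likelihood test, and the orange bar is the median of a list. The milk protein genes all lie left of 0 with a median of −1.26, while the other lists spread over both sides, with medians between −0.18 and 0.31.

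TDP-43, the protein of *Tardbp*, binds UG repeats in RNA, so runs of at least 3 UG dinucleotides were counted for each member, in its longest annotated transcript. *Jak2* held 22 UG dinucleotides in 7 runs and ranked 802nd of 15112 transcripts. *Nfib* held 15, *Prlr* 13, *Socs2* 12, *Stat5b* and *Nr3c1* 9 each and *Stat5a* 3, against a median of 3 over all transcripts. These counts are not scaled by transcript length. Per kb of transcript, *Jak2* had 4.37, *Socs2* 2.83, *Stat5b* 1.73 and *Nfib* 1.65 UG dinucleotides in runs, against a median of 1.43. *Prlr* at 1.31, *Stat5a* at 0.772 and *Nr3c1* lay below that median. *Elf5*, *Cish* and *Socs1* had no run, as did 28.5% of all transcripts. No member had a run longer than 4, and 6.33% of all transcripts had one of at least 6. The longest runs are shown with their flanks, written with T for U as in NCBIM37 and with the run in capitals.
Jak2, exon 16, coding part, chr19:29371016-29371043, plus strand: ttcatgggaaTGTGTGTGctaaaaatat
Prlr, exon 10, 3′ UTR, chr15:10259281-10259308, plus strand: accatatataTGTGTGTGcatatatatg

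The genes most like *Prlr*, *Stat5a* and *Cish* over the 7 libraries were taken by the root mean square difference of log2 CPM, each gene centred on its own mean. Nearest to *Prlr* were *SNORD45* (0.0989), *Hyal3* (0.135) and *Me1* (0.142), where the median over all genes was 0.613. *Me1*, which encodes the malic enzyme that makes NADPH for fat synthesis, was the only one of these above 10 CPM, with means of 463 CPM in WT and 304 CPM in KO libraries. Nearest to *Stat5a* were *Fam82a2* (0.104), *Osbp2* (0.107) and *Nmb* (0.127), where the median was 0.537. Nearest to *Cish* were *4930432B10Rik* (0.272), *B230206L02Rik* (0.281) and *Gp1bb* (0.289), where the median was 0.792, so that no gene followed *Cish* as closely as others followed *Prlr*.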

How the data were processed

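RNA of mammary glands at lactation day 1 was measured in 3 WT and 4 Tardbp KO libraries, grouped by their labels. The values are raw counts per gene that the authors deposited without normalization. They made them by mapping paired-end reads with STAR to NCBIM37 (the submitters' processing notes name version 2.5.2a and mm9) and counting on GENCODE vM1 exons with featureCounts 1.4.6-p5, per the file headers with no option for strand, pairs or multimapping reads. Reads on both strands count, mates count separately, and reads over several places or genes do not. A further library named in the command line (1) was not analysed here.

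Mitochondrial (37) and ribosomal (580) genes and genes without at least 5 counts in at least 4 libraries were removed. Genotypes were tested by edgeR 4.0.16 under R 4.3.3 (TMM, quasi-likelihood test, Benjamini-Hochberg adjustment over 17175 genes). The study names edgeR but not the test. Its limits were used. Single members were also compared with an exact permutation test, 2-sided, on log2 CPM (prior count 2). Levels are TMM-normalized CPM, and "per kb" divides by the exon length in the file. Totals of 36007737 to 42811337 counts leave counting error small for all members except *Socs1*.

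The members and lists were chosen with earlier results of these data known. Named were the members, in each list the genes with the lowest p in each direction, and the 3 genes nearest in profile to *Prlr*, *Stat5a* and *Cish*. Other genes were named after their values were seen. Alternatives were other normalizations, filters, tests (with DESeq2 1.42.0), thresholds, a replicate block, each library left out and lane 4 only. Tables were made with Python 3.11.15. Milk assays and other experiments of the study were left out.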

Additional observations from a re-analysis of the deposited data

Results flagged for a closer look

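The level of *Prlr* in KO replicate 1, 49.8 CPM, stood apart from the other KO libraries at 87.6 to 93.2 CPM. The gap to the nearest library was 0.871 of the range of the KO group, above the 95% critical value of Dixon's test for 4 samples. The other 9 genes had no library past this limit in the KO group, and chance passes it in about 1 in 20 groups. KO replicate 1 also had the lowest *Elf5* and the highest *Cish* and *Socs2* of the 7 libraries.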

How the results depend on the processing

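None of the 10 genes was called under any alternative. Over all genes the number called was 1 with no filter on low counts, 1 with an adjusted p under 0.05, 426 with edgeR's exact test, 464 with its likelihood ratio test and 568 with DESeq2's Wald test, and 0 in edgeR's quasi-likelihood test with each library left out, where 3674 genes had an unadjusted p under 0.05 with all libraries. The number of members without overlap lay between 3 and 7 with each library left out, and it was 8 within lane 4, where 1 WT library faces 2 KO libraries and 64.1% of all genes do not overlap. The exact permutation test passed 0.05 for 1 member, and for 3 when the 10 most counted genes did not enter the library size, an alternative added after seeing the data. The share of all genes that pass this test was not computed, so these counts have no background and say nothing particular to the members. With libraries scaled by size alone, which moves the median of all genes from 0.05 to 0.42, the log2 fold changes of *Stat5b*, *Cish* and *Nfib* turned to 0.14, 0.21 and 0.24, and 2 members had an unadjusted p under 0.05, as did 33.8% of all genes. *Cish* lay between −0.36 and 0.18 with each library left out, and turned to 0.09 without WT replicate 3 and to 0.18 without KO replicate 3, and *Socs2* to −0.13 within lane 4. The cause of these turns was not tested, and 204 of 210 member values kept their direction. The replicate numbers do not pair the libraries by their labels, and deviations from the genotype means correlated at 0.351, 0.0941 and −0.0580 across genes for replicates 1, 2 and 3. The replicate block called 0 genes and 0 members. Counts limit only *Socs1*, with 45 to 67 per WT library.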
